A study of Rattus norvegicus with 10 samples.

Results

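The mammalian circadian clock was examined in rat liver through 10 of its genes, chosen by name: the activators Bmal1 (also called Arntl), Clock and Npas2, the period genes Per1, Per2 and Per3, the cryptochrome Cry1, the nuclear receptors Nr1d1 and Nr1d2 (REV-ERB alpha and beta), and the output factor Dbp. These 10 genes were represented by 12 of the 41012 probes of a whole rat genome array, since Per3 and Npas2 had 2 probes each. The rule uses gene names and no measured value, although the members were chosen with earlier results of these data known. The question was whether the clock genes stood at the same levels in the livers of the 3 groups, which were all sampled at the same interval after injection.

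The animals were male Sprague Dawley rats kept under a 12-h photoperiod, and each array held liver RNA from 1 rat. The control group (3 arrays) received the propylene glycol solvent under the skin of the back. The SM group (4 arrays) received sulfur mustard (SM), an alkylating vesicant, in the same solvent as a single subcutaneous dose of 3.5 mg/kg, equal to 0.7 of the LD50. The SM + MSTF group (3 arrays) received the same SM dose and, 1 h later, 120 mg/kg by stomach tube of MSTF, a mixture of plant extracts that combines salvianolic acids of Salvia miltiorrhiza with total flavonoids of Anemarrhena asphodeloides. Livers were collected 24 h after the SM or solvent injection. The age of the rats, the clock hour of injection and killing, feeding before killing, and any stomach tubing of the control and SM rats were not given in the sources used here. There was no group given MSTF alone.

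In most nucleated cells the clock runs as a feedback loop of transcription. BMAL1 pairs with CLOCK or with its relative NPAS2 and binds E-box sequences to switch on the Per, Cry, Nr1d and Dbp genes. PER and CRY proteins accumulate, enter the nucleus and shut this activity off, while REV-ERB proteins repress Bmal1, Npas2, Clock and Cry1 through elements shared with the ROR activators. In liver most of these transcripts normally swing widely over the day. The REV-ERB and Dbp messages peak first, Per messages follow, Cry1 comes late, and Bmal1 and Npas2 peak nearly opposite to the REV-ERBs. A shift of the whole rhythm would therefore move the genes of the loop by different amounts and in different directions at a fixed hour, and meals as well as light set the hour of the liver clock.

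The promoters of 4 members are shown to place these elements. The RefSeq promoter table for the rat assembly GRCr8 gave 11 windows of 300 bases (250 before and 50 after each start) for 9 of the 10 members, Cry1 being the one without an entry. Each window was searched on both strands for the E-box CACGTG, its variant CACGTT, the REV-ERB and ROR element TAGGTCA, its core site AGGTCA and the D-box TTATGNAA, which is the kind of site bound by DBP. Of all 33469 promoter windows in the table, 6.42% held CACGTG, 4.83% held CACGTT, 2.63% held TAGGTCA, 16.2% held AGGTCA and 3.66% held TTATGNAA. Every TAGGTCA also contains the core site. Capitals mark the matches in the sequences, which read 5′ to 3′ along the gene.
Nr1d1, first start, chr10:84229405-84229704, minus strand: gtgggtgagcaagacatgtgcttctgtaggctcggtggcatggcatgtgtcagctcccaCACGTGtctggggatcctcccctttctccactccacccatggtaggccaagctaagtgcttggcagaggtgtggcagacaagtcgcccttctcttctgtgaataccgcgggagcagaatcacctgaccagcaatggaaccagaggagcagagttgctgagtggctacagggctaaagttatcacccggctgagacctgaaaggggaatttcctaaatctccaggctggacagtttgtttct
Nr1d1, second start, chr10:84231763-84232062, minus strand: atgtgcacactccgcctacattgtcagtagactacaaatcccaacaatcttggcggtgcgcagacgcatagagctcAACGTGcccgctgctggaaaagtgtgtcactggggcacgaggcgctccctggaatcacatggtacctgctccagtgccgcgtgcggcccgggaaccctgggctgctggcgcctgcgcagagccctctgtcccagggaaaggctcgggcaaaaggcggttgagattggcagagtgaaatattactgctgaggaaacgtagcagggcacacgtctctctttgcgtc
Nr1d2, chr15:9954784-9955083, plus strand: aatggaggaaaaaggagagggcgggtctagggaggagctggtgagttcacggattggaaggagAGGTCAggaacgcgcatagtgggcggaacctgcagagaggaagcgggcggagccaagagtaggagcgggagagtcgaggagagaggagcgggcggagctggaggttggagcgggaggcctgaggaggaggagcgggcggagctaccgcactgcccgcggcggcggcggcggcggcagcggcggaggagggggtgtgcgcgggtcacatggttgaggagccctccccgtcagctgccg
Bmal1, chr1:176766078-176766377, plus strand: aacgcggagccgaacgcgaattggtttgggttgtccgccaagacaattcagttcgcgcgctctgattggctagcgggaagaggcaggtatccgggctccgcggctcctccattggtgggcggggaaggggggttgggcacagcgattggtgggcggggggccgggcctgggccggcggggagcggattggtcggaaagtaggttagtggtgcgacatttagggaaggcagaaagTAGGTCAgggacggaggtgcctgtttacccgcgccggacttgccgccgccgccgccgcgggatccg
Per2, chr9:99496944-99497243, minus strand: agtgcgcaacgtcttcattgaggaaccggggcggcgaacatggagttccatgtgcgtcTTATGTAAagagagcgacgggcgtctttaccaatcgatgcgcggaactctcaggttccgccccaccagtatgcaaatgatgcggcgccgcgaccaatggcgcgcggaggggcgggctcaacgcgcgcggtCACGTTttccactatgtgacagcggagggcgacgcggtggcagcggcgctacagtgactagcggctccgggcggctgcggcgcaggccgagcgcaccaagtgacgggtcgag
The first Nr1d1 window held an E-box 191 bases upstream of the start, and the second held the variant 174 bases upstream. The Nr1d2 window held a core site 187 bases upstream. The Bmal1 window held the full REV-ERB and ROR element 16 bases upstream. The Per2 window held a D-box 192 bases and an E-box variant 62 bases upstream. The windows of Clock, Npas2, Per1, Per3 and Dbp held none of these letters, and elements outside the windows were not searched.

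The arrays were of even quality. Between 51.9% and 61.4% of probes were well above background on each array, no spot was saturated, and the correlation of log2 signal between arrays was 0.977 to 0.991 within groups and 0.969 to 0.988 between groups. All 8 hepatocyte markers, among them Alb and Apoa1, were well above background on all 10 arrays and none was called. Apoa1 and Ttr read lower in SM + MSTF than in control without overlap (-0.43 and -0.49), and signals this bright have little room to differ after quantile normalisation. Tests covered the 22991 probes whose signal rose well above background throughout 1 group or more. It was called changed at a limma adjusted p under 0.05 and a difference of at least 1.5-fold. The 4 SM arrays shared slide 2, which held no other group, so SM and slide cannot be told apart. Slide 1 held the 3 controls with SM + MSTF replicate 3, and slide 3 held SM + MSTF replicates 1 and 2. All levels below are log2 of the quantile-normalised signal of the gene's brightest probe, and levels of different genes were not compared with each other.

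Of the 10 clock genes, 9 were tested. Nr1d1 was the only one called in SM against control, where it fell, and the only one called in SM + MSTF against SM, where it rose. No member was called in SM + MSTF against control. In SM against control the count of 1 in 9 stood beside 2.41% of all tested probes called, split into 1.43% lower and 0.974% higher. In SM + MSTF against SM it stood beside 1.26%, split into 0.322% higher and 0.939% lower. In SM + MSTF against control the 0 in 9 stood beside 0% of all tested probes called. A count of 1 in 9 is too small to set the clock genes apart from the array as a whole. At an unadjusted p under 0.05, 4 of 9 members differed between SM and control against 16.4% of all probes, 0 of 9 between SM + MSTF and control against 9.54%, and 4 of 9 between SM + MSTF and SM against 15.9%. Nr1d1 was also the only member past the F-test over the 3 groups (limma adjusted p = 0.040), which 2.07% of all probes passed.

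**Figure D1:**
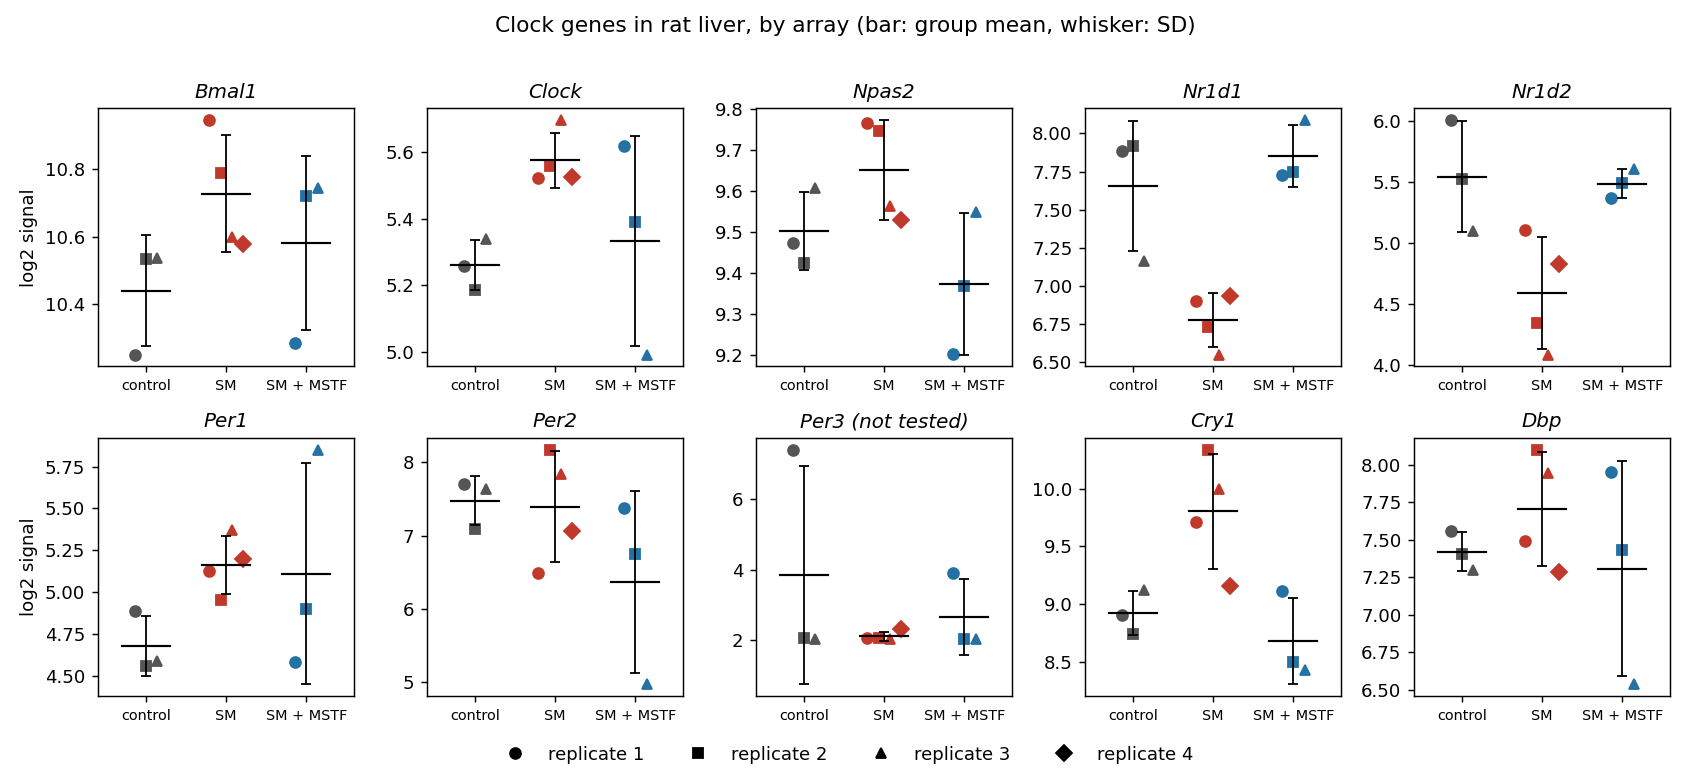
Log2 signal of the main probe of each clock gene on each of the 10 arrays, by group, with the group mean (bar) and SD (whisker). The 4 SM arrays lie below all other arrays for Nr1d1 (6.55 to 6.94 against 7.17 to 8.09) and above all other arrays for Cry1 (9.16 to 10.34 against 8.43 to 9.12), whereas the groups overlap for Per2 and Dbp. Vertical scales differ between panels, and Per3 was well above background on 1 array only.

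Nr1d1 encodes REV-ERB alpha, the haem-binding receptor that represses Bmal1. Its log2 signal was 7.89, 7.92 and 7.17 in the controls, 6.90, 6.73, 6.55 and 6.94 in the SM livers, and 7.72, 7.75 and 8.09 in the SM + MSTF livers. Every SM array was thus below every array of the other groups, and control replicate 3 stood closer to the SM arrays than the other controls did. The SM mean was 1.84-fold below control (log2 difference -0.88, SE 0.19, limma adjusted p = 0.0471). SM + MSTF was 2.11-fold above SM (1.07, SE 0.19, limma adjusted p = 0.0317). Against control, SM + MSTF differed by 0.20 (SE 0.21, 95% interval -0.27 to 0.66, limma adjusted p = 0.788). Both called comparisons used the same SM arrays and so are not independent of each other.

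The Nr1d1 calls lay close to the threshold, while the direction held under each alternative run. Over 23 alternative settings the SM difference stayed between -1.12 and -0.63. Of the 22 settings with an adjusted p, which ran from 0.0234 to 0.182, 6 kept the call. The difference between SM + MSTF and SM stayed between 0.75 and 1.14 over 23 settings, and 10 of the 22 with an adjusted p kept the call. The remaining setting, the methods' t-test without adjustment, passed in both comparisons. With slide as a random block the SM difference was -0.85 (limma adjusted p = 0.142) and that between SM + MSTF and SM was 1.08 (limma adjusted p = 0.0770). Leaving out control replicate 3 moved the SM difference to -1.12, and leaving out any other control ended the call. Leaving out any 1 of the SM arrays ended it as well (adjusted p between 0.0739 and 0.122), as did leaving out SM + MSTF replicate 1 or 2. The call in SM + MSTF against SM was lost without any 1 array of either group (adjusted p between 0.0513 and 0.0936) and kept without any 1 control. In a tissue sample, fewer cells of a type and less RNA per cell cannot be told apart.

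**Figure D2:**
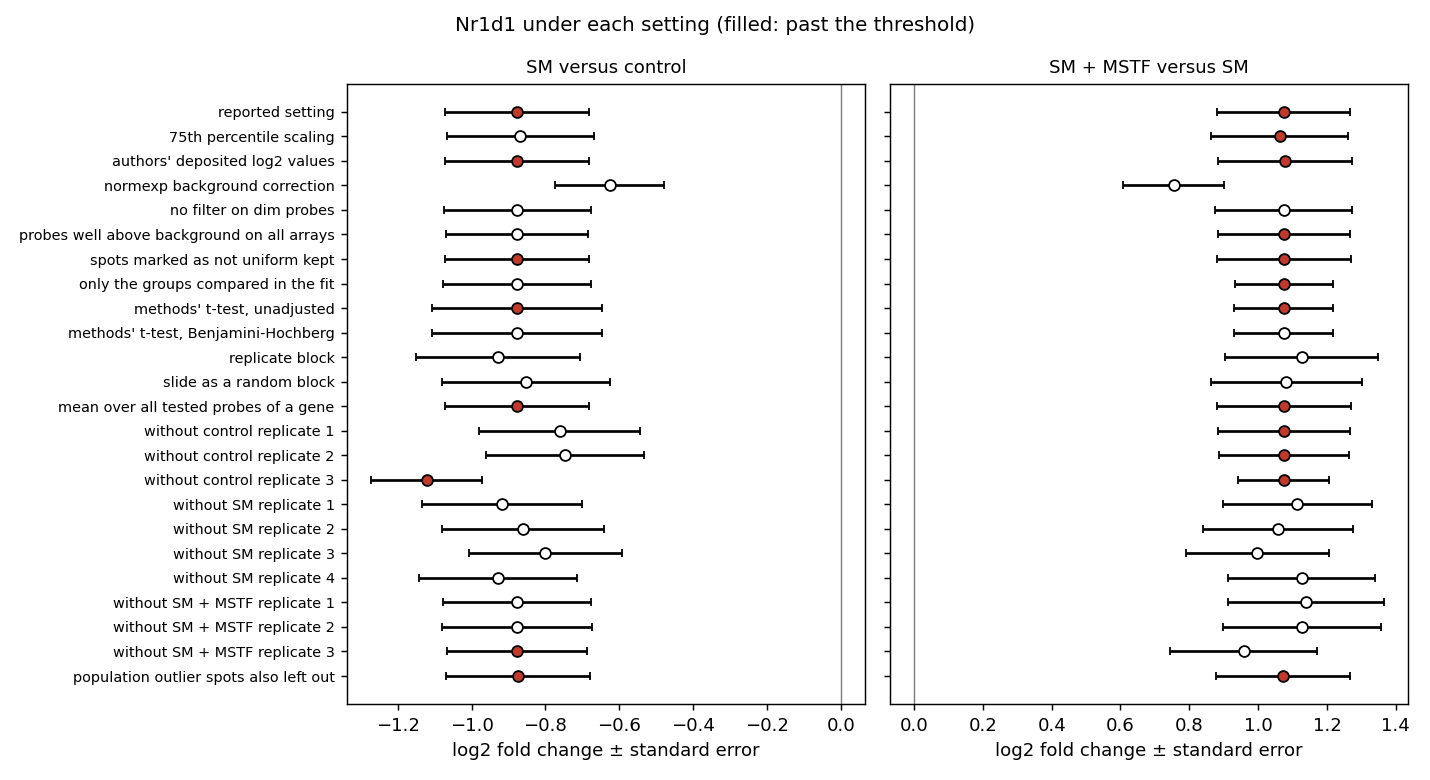
Log2 fold change of Nr1d1 with its standard error in SM against control (left) and SM + MSTF against SM (right), for the reported setting and 23 alternatives. Filled points passed the threshold of the setting. All points lie between -1.12 and -0.63 on the left and between 0.75 and 1.14 on the right, on 1 side of 0 in each panel.

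Nr1d2 encodes REV-ERB beta, the partner receptor that represses the same targets. Its log2 signal was 6.01, 5.53 and 5.10 in the controls, 5.11, 4.35, 4.08 and 4.83 in the SM livers, and 5.37, 5.49 and 5.61 in the SM + MSTF livers. SM replicate 1 reached the lowest control, while the other SM arrays were below all controls, and SM replicate 3 was not well above background. The difference from control was -0.95 in SM (SE 0.27, 95% interval -1.55 to -0.36), which was not called (limma adjusted p = 0.103). SM + MSTF stood 0.90 above SM without overlap (SE 0.27, limma adjusted p = 0.161) and -0.06 from control (SE 0.29). With normexp background correction, which damps signals near background, these differences shrank to -0.23 for SM against control and 0.23 for SM + MSTF against SM. Across the 10 arrays the pattern of Nr1d2 ranked 3rd of 9185 genes by Pearson correlation with Nr1d1 (r = 0.911). This correlation is a description over arrays that share group and slide.

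Cry1 encodes a cryptochrome, a strong repressor of the BMAL1 and CLOCK pair and a target of the REV-ERBs. Its log2 signal was 8.90, 8.74 and 9.12 in the controls, 9.71, 10.34, 10.00 and 9.16 in the SM livers, and 9.11, 8.50 and 8.43 in the SM + MSTF livers. All SM arrays were above all others, SM replicate 4 only by the smallest margin (9.16 against 9.12). The SM mean was 0.88 above control (SE 0.27, 95% interval 0.28 to 1.48), which was not called (limma adjusted p = 0.130). SM + MSTF was -1.12 from SM (SE 0.27, limma adjusted p = 0.0882) and -0.24 from control (SE 0.29, limma adjusted p = 0.814). Without SM replicate 4, SM + MSTF stood -1.34 from SM, which passed the threshold (limma adjusted p = 0.0378), while the Nr1d1 call in that comparison was lost.

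The activators moved little. Bmal1 read 10.25, 10.53 and 10.54 in the controls, 10.95, 10.79, 10.60 and 10.58 in the SM livers, and 10.28, 10.72 and 10.74 in the SM + MSTF livers. The SM arrays were above all controls, by 0.29 in the mean (SE 0.15, 95% interval -0.04 to 0.62, limma adjusted p = 0.380), and overlapped SM + MSTF. Clock, the acetyltransferase partner of BMAL1, read 5.26, 5.19 and 5.34 in the controls, 5.52, 5.56, 5.70 and 5.52 in the SM livers, and 5.62, 5.39 and 4.99 in the SM + MSTF livers. Here too the SM arrays did not overlap the controls (0.31, SE 0.14, limma adjusted p = 0.299). The SM + MSTF arrays ran from below all controls to within the SM range. The upper bounds of the 95% intervals in SM against control were 0.62 for Bmal1 and 0.63 for Clock.

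Npas2, the relative of Clock, read 9.47, 9.42 and 9.61 in the controls, 9.76, 9.75, 9.56 and 9.53 in the SM livers, and 9.20, 9.37 and 9.55 in the SM + MSTF livers. All groups overlapped. The differences were 0.15 for SM against control (SE 0.11), -0.13 for SM + MSTF against control (SE 0.12) and -0.28 for SM + MSTF against SM (SE 0.11, limma adjusted p = 0.276). A second Npas2 probe of lower signal gave the opposite signs in the same order, -0.12, 0.07 and 0.19, none of them called, so no direction is given for this gene.

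Per1 and Per2 encode PERIOD proteins, which carry the cryptochromes into the repressor complex and also respond directly to hormonal and nutrient signals. Per1 read 4.88, 4.56 and 4.58 in the controls, 5.13, 4.95, 5.37 and 5.20 in the SM livers, and 4.58, 4.90 and 5.85 in the SM + MSTF livers, with 9 of the 10 arrays well above background. The SM arrays lay above all controls, whereas the SM + MSTF arrays ran from control level to the highest value of the series. The differences were 0.49 for SM against control (SE 0.26, limma adjusted p = 0.399) and 0.43 for SM + MSTF against control (SE 0.28, limma adjusted p = 0.648). The second difference rested on SM + MSTF replicate 3, without which it was 0.06. Within slide 1 that array alone was 1.18 above the control mean, a value from 1 array whose spread had to be taken from the others. With normexp the differences were 0.13 and 0.10.

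Per2 read 7.70, 7.10 and 7.64 in the controls, 6.50, 8.17, 7.85 and 7.06 in the SM livers, and 7.37, 6.76 and 4.98 in the SM + MSTF livers. The SM arrays lay on both sides of the controls, and SM + MSTF replicate 3 was far below every other array. SM differed from control by -0.08 (SE 0.56), a spread that leaves a 95% interval of -1.33 to 1.17. SM + MSTF differed from control by -1.11 (SE 0.60, limma adjusted p = 0.587), and by -0.41 without replicate 3. That array alone was -2.50 from the control mean of its slide, and with normexp the difference of the groups was -0.59. Per3 could not be compared. Its main probe was well above background only on control replicate 1 (7.39), the reading was 3.91 on SM + MSTF replicate 1, and the other 8 arrays lay between 2.04 and 2.31. Its second probe stayed near background on all 10.

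Dbp, a PAR bZIP factor that carries the rhythm to metabolic genes through D-boxes, is a direct E-box target of BMAL1. Its log2 signal was 7.56, 7.40 and 7.30 in the controls, 7.49, 8.10, 7.94 and 7.28 in the SM livers, and 7.95, 7.43 and 6.54 in the SM + MSTF livers. All groups overlapped, and the highest and the lowest reading came from SM replicate 2 and SM + MSTF replicate 3. The differences were 0.29 for SM against control (SE 0.31, 95% interval -0.41 to 0.98) and -0.11 for SM + MSTF against control (SE 0.33). The second value turned to 0.27 without SM + MSTF replicate 3.

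**Figure D3:**
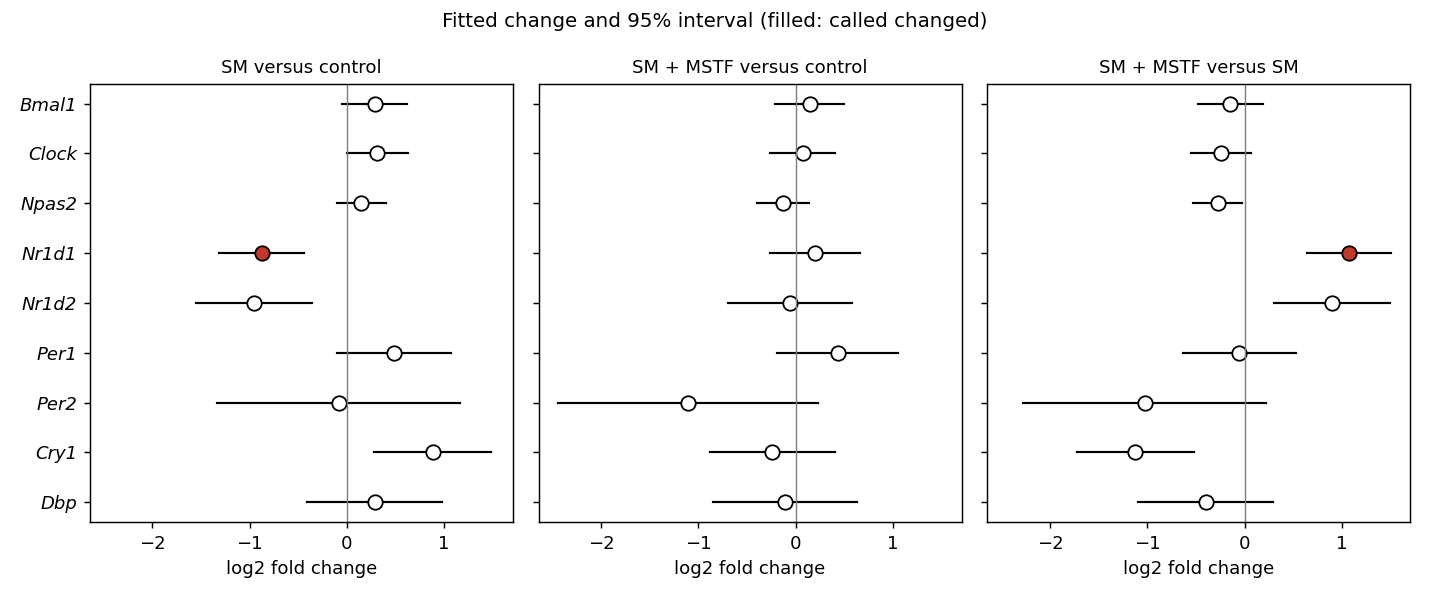
Fitted log2 fold change (point) and 95% interval (line) of the 9 tested clock genes in the 3 comparisons. Filled points mark called genes, which are Nr1d1 in SM against control (-0.88) and in SM + MSTF against SM (1.07). The widest intervals belong to Per2 (-1.33 to 1.17 in SM against control).

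By groups that did not overlap, 5 of 9 members (Per1, Cry1, Bmal1, Clock and Nr1d1) separated SM from control, against 18% of all tested probes. In SM + MSTF against SM it was 3 of 9 (Cry1, Nr1d1 and Nr1d2) against 14.7%, and in SM + MSTF against control 0 of 9 against 15.4%. The median difference over the 9 members was 0.29, -0.24 and -0.06 in these 3 comparisons in turn. Over all tested probes the medians were 0.03, -0.02 and 0.00.

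All livers came from a single time after injection, so a level that differs cannot be told apart from a rhythm that has shifted or lost amplitude. What can be given is the position of each array. The mean of Bmal1, Clock and Npas2 relative to control was 0.34, 0.30, 0.22 and 0.14 in the SM livers in order of replicate, which was above the control range of -0.07 to 0.09. In the SM + MSTF livers it was -0.03, 0.09 and 0.03, within that range. None of the 3 activators was called. The mean used the brighter Npas2 probe, while the second probe of that gene went the other way (-0.12 in SM against control). On the second probe SM replicate 4 read 4.81, below all controls (5.01 to 5.27). The place of that array above the control range therefore rests on the probe chosen. The mean also hides differences among the 3 activators. Npas2 in SM replicates 3 and 4 was below control replicate 3. In SM + MSTF, Bmal1 was above all controls in replicates 2 and 3, and Clock was below all controls in replicate 3.

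The genes that BMAL1 drives did not move as a block. The mean of Nr1d1, Nr1d2, Dbp, Per1 and Per2 relative to control was -0.33, -0.09, -0.20 and -0.29 in the SM livers, 0.04, -0.09 and -0.34 in the SM + MSTF livers, and 0.25, -0.05 and -0.20 in the controls. These ranges overlapped, and the members differed in direction. The split of these genes into the smaller sets below was not planned and was not tested, and the REV-ERB pair holds the called gene Nr1d1. The mean of the REV-ERB pair was -0.60, -1.06, -1.28 and -0.72 in the SM livers, below the control range of -0.47 to 0.35. The mean of Per1, Per2 and Dbp was -0.15, 0.55, 0.53 and -0.01 in the same livers.

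SM replicates 2 and 3, which had the lowest Nr1d1 and Nr1d2 of the group, also had its highest Cry1, Per2 and Dbp. This was noticed after the values were seen and was not tested. In SM + MSTF replicate 3 the mean of the REV-ERB pair was 0.25 and that of Per1, Per2 and Dbp was -0.74, with Cry1 at -0.49. That array held the highest Nr1d1 and Per1 and the lowest Per2, Dbp, Cry1 and Clock of all 10, and it is the array that shared a slide with the controls.

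**Figure D4:**
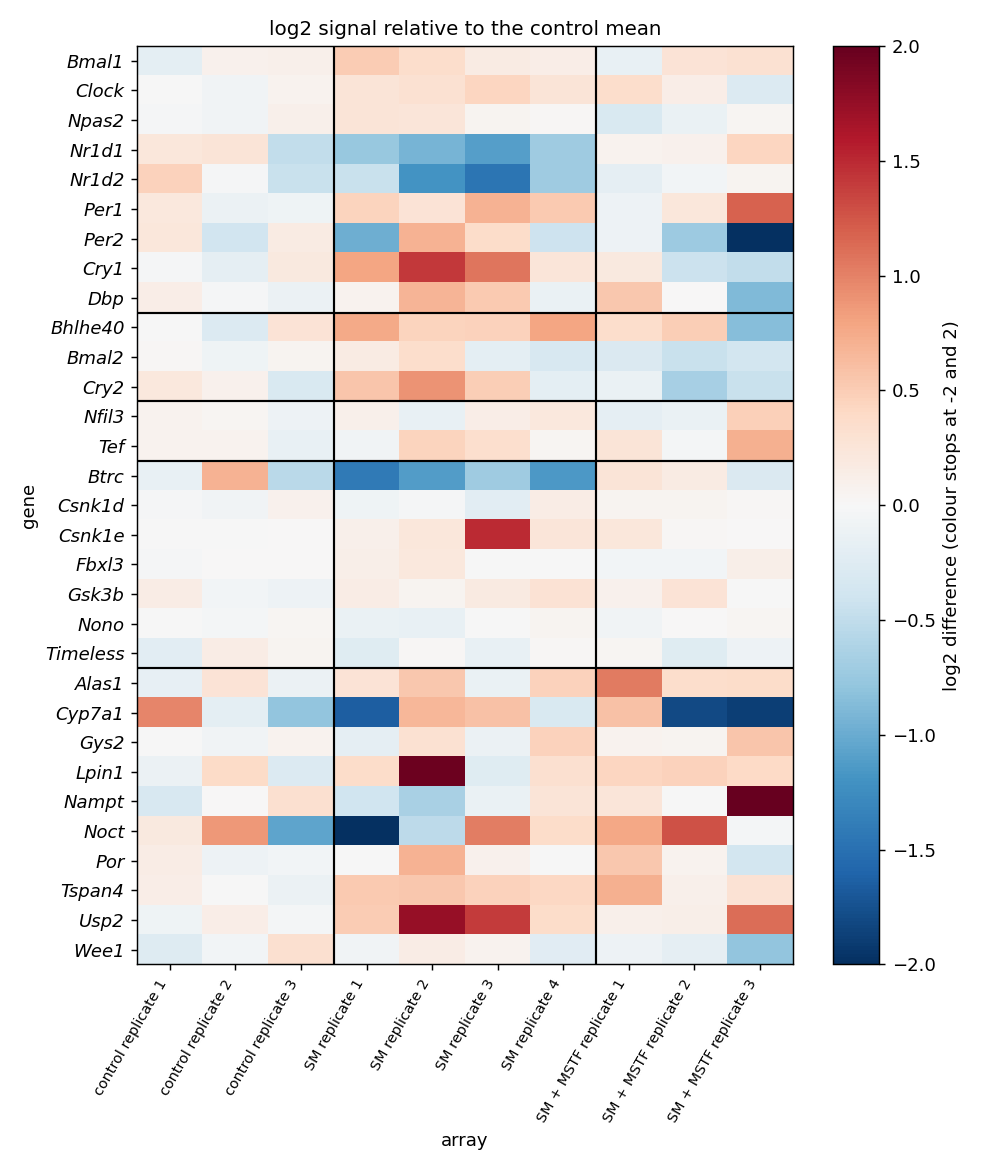
Log2 signal of the 9 tested clock genes (top block) and the 22 tested clock-related genes (lower blocks: loop genes, D-box factors, kinases and cofactors, output genes) on each array, relative to the control mean. The 4 SM columns are below control for Nr1d1 and Nr1d2 and above control for Cry1, Bmal1, Clock and Per1. In SM + MSTF replicate 3, Per2 was 4.98 against a control mean of 7.48.

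The wider clock pathway was followed through a list of 31 clock-related genes, of which 23 were matched to a probe by name and 22 were tested. None was called in any of the 3 comparisons, against the shares of all probes given above. At an unadjusted p under 0.05, 3 of the 22 differed between SM and control, against 16.4% of all tested probes. It was 2 between SM + MSTF and control against 9.54%, and 3 between SM + MSTF and SM against 15.9%. These counts do not set the list apart from the array as a whole. The median differences of the 22 genes in these comparisons were 0.10, 0.06 and -0.06. Elovl3 stayed near background throughout. The 8 genes not matched by name, among them Bhlhe41, Ciart, Hlf and Sirt1, were not analysed here.

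Cry2, Btrc and Usp2 of this list were picked for description after their values were seen. Cry2, the second cryptochrome, read 6.32, 6.20 and 5.80 in the controls, 6.65, 7.00, 6.60 and 5.91 in the SM livers, and 5.97, 5.44 and 5.65 in the SM + MSTF livers. SM replicates 1 to 3 were above all other arrays, and SM + MSTF differed from SM by -0.85 (SE 0.25, limma adjusted p = 0.153). Btrc, a subunit of the ubiquitin ligase that marks PERIOD proteins for destruction, was not well above background on any of the 4 SM arrays (3.28, 3.58, 4.00 and 3.56), while it was on all 6 other arrays (4.16 to 5.40). The fit of SM against control did not pass (limma adjusted p = 0.0794), and no fold is given because the SM level is only a bound. Usp2, a deubiquitinase whose liver message follows the clock, read 6.58, 7.81, 7.47 and 6.44 in the SM livers and 5.98, 6.19 and 6.02 in the controls (1.01, SE 0.36, limma adjusted p = 0.196). In the SM + MSTF livers it read 6.18, 6.18 and 7.18, so that replicate 3 lay within the SM range. SM + MSTF differed from SM by -0.56 (SE 0.36, limma adjusted p = 0.453).

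Kupffer and natural killer cell markers differed in the same directions as Nr1d1 in the comparisons where it was called, mostly without passing the test. So did the 1 tested B cell marker. The 4 tested T cell markers were all negative in SM against control, and 3 of them were positive in SM + MSTF against SM. Other lists did not all do so. All 5 tested stellate and all 4 tested erythroid markers were negative in SM + MSTF against SM. None of the 6 Kupffer cell markers was called. All 6 had a negative difference in SM against control (median -0.16) and all 6 a positive one in SM + MSTF against SM (median 0.42). At an unadjusted p under 0.05, 0 of the 6 differed in SM against control, against 16.4% of all tested probes. In SM + MSTF against SM it was 3, against 15.9%. Marco, a scavenger receptor of these cells with the largest difference of the list there, stood 0.96 above SM without overlap (limma adjusted p = 0.147). The summed log2 signal of the list was 15.6 to 16.2 in control, 15.1 to 15.9 in SM and 15.7 to 16.1 in SM + MSTF. Of 5 natural killer cell markers 4 were tested and 1, the receptor gene Klrd1, was called in the same comparisons as Nr1d1. The count of 1 in 4 stood beside 2.41% and 1.26% of all tested probes, and is too small to set the list apart. The Klrd1 difference was -1.22 in SM against control (limma adjusted p = 0.0277) and 1.15 in SM + MSTF against SM (limma adjusted p = 0.0455). Only 2 of the 4 SM arrays were well above background for Klrd1. All 4 tested markers were negative in the first comparison (-1.22 to -0.28) and positive in the second (0.28 to 1.15). Ncr1, a defining marker of these cells, stayed near background throughout. The summed signal of the list, to which the brighter Nkg7 and Prf1 contribute most, overlapped between groups (9.95 to 10.23 in control, 9.16 to 10.52 in SM, 9.56 to 10.75 in SM + MSTF). All 4 erythroid markers had a positive difference in SM against control (median 0.91). Of these, 2 had an unadjusted p under 0.05, against 16.4% of all tested probes. The 1 tested B cell marker, Cd79b, read -2.18 from control in SM without overlap (limma adjusted p = 0.125) and was well above background on 7 arrays. The part of any of these cells in the Nr1d1 difference was not tested. No marker of endothelial, stellate, bile duct, B, T, neutrophil or erythroid cells was called (3, 5, 2, 1, 4, 2 and 4 tested).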

How the data were processed

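One-colour Agilent Whole Rat Genome oligonucleotide arrays were read for 10 livers. The authors scanned them with Feature Extraction 10.7, and the deposited intensity is the background-subtracted processed signal of each spot. The authors also deposited log2 values after quantile normalisation, with a median of 5.18 on every array (not centred on 0). These correlated at 1.00 with the log2 signal of the same array as quantile-normalised here, and served as an alternative close to the reported setting. The limits set by the number of arrays apply to all values, since arrays carry no count depth.

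Here, control features were dropped, as were those that the scanner software marked as not uniform. The processed signal was quantile-normalised over the 10 arrays and log2-transformed, and replicate spots were averaged per probe. Probes well above background in at least 0.5 of their spots on every array of 1 group were fitted in limma 3.58.1 (R 4.3.3) with all 10 arrays, and p-values were adjusted by Benjamini-Hochberg over 22991 probes. A gene was represented by its probe of highest mean log2 signal. Probe names came from RefSeq accessions of the GRCr8 table, which named 17512 of 41012 probes. The procedure was tested on simulated data.

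The labels number the replicates, the paper describes them as individual rats, and p-values measure the spread between these rats. Within SM and within control that spread lies on 1 slide each, so it holds no difference between slides. Groups came from the labels. All 10 members were described, clock-related genes when called (those chosen after seeing values are said to be), and the 5 genes most like Dbp and the 5 most like Bmal1 by Pearson r. The members and lists were chosen with earlier results of these data known. Alternatives covered scaling, normexp background correction (offset 50), the deposited values, filters, the fold minimum, the probe rule, the methods' t-test, replicate and slide blocks, leaving out each array, and, added after seeing the data, dropping population outlier spots.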

Additional observations from a re-analysis of the deposited data

How the results depend on the processing

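The count of 1 clock gene called in SM against control became 0 with 75th percentile scaling, normexp background correction, no filter on dim probes, the filter on all arrays, a fit of only the groups compared, the methods' t-test after Benjamini-Hochberg, the replicate block and slide as a random block. It became 3 (Cry1, Nr1d1 and Nr1d2) with the methods' t-test at an unadjusted p. In SM + MSTF against SM the count of 1 became 0 with normexp, no filter, the methods' t-test after Benjamini-Hochberg, the replicate block and slide as a random block, and 3 with the unadjusted t-test. The F-test count of 1 became 0 in the same 5 settings (ANOVA after Benjamini-Hochberg for the t-test) and 3 with the unadjusted ANOVA. In SM + MSTF against control the count of 0 became 1 (Per1) with slide as a fixed block. There the comparison is SM + MSTF replicate 3 alone against the controls, the lone array being assumed to vary like the others, so it says little of the group. That block could not be fitted for comparisons with SM, whose slide held no other group. Leaving out 1 array at a time gave counts of 0 to 1 for SM against control, SM + MSTF against SM and the F-test, and 0 for SM + MSTF against control. The cause was not tested in any of these cases. The share of all probes called in SM against control ran from 0.231% to 4.92% over the settings.

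Same-numbered arrays of different groups had deviations correlated between -0.0991 and 0.169, and not all were above 0.1, so the replicate numbers were not taken to pair the animals. With the replicate block, 0 members were called in each comparison, Nr1d1 differed by -0.93 in SM against control (limma adjusted p = 0.110) and by 1.13 in SM + MSTF against SM (limma adjusted p = 0.0881), and the Per2 difference of SM from control turned to 0.029.

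Differences near 0 changed sign in other places. With the fixed slide block, that is for SM + MSTF replicate 3 alone, the difference from control was -0.27 for Clock, 0.061 for Nr1d2 and 0.046 for Npas2. Leaving out 1 array at a time moved SM against control between -0.34 and 0.22 for Per2. It moved SM + MSTF against control between -0.047 and 0.33 for Nr1d1, -0.28 and 0.17 for Nr1d2, -0.44 and 0.27 for Dbp, and -0.070 and 0.24 for Clock, and SM + MSTF against SM between -0.42 and 0.21 for Per1 and -0.23 and 0.0036 for Bmal1. Over all members, comparisons and alternatives, 574 values kept direction and side of the threshold, 28 lost the threshold, 6 gained it and 16 changed sign. The median difference of all probes moved by under 0.1 between scalings. Per1, Per3 and Nr1d2 are limited by signals near background.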

Other observations

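A list of 13 genes that respond to feeding, fasting or glucocorticoids was read beside the clock genes, because meals and corticosterone both reset the liver clock. Of these, 12 were matched and tested, and none was called in any comparison. At an unadjusted p under 0.05, 3 of the 12 differed between SM + MSTF and control, against 9.54% of all tested probes. These were Mt1, Mt2A and Angptl4, which stood above control without overlap (1.73, 2.20 and 0.72). The same 3 differed between SM + MSTF and SM, against 15.9% of all tested probes. Between SM and control it was 0 of 12, against 16.4%. SM + MSTF replicate 3 also stood apart from the other 9 arrays on several genes of the list. Fasn, fatty acid synthase, read 12.05 there against 13.86 to 15.13 elsewhere. Pck1, the gluconeogenic enzyme induced in fasting, read 15.57 against 13.40 to 15.14, and Igfbp1, another fasting-induced gene, read 15.07 against 10.99 to 13.85. The glucocorticoid targets Fkbp5 (11.08 against 9.37 to 10.08) and Tsc22d3 (11.07 against 9.82 to 10.61) were also highest on this array, as was Nampt (11.11 against 8.27 to 9.23), which makes a precursor of NAD and is a clock output. Other glucocorticoid-responsive genes of the list did not follow them. Sgk1 was lowest on this array (9.02 against 9.36 to 10.88), Dusp1 read 8.68 against 8.37 to 9.79, and Tat read 10.04 against 9.48 to 10.61. This is the same array that held the lowest Per2, Dbp, Cry1 and Clock and the highest Nr1d1 and Per1. The part of feeding state or glucocorticoids in those clock gene levels was not tested. The genes were picked after their values were seen.

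Without SM + MSTF replicate 3, the share of all tested probes called in SM + MSTF against control was 1.07%, and still no clock gene was called there. Nr1d1 then stood 0.96 above SM (limma adjusted p = 0.0792) and 0.08 above control.

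Over the 10 arrays and 9177 named genes, the 5 patterns most like Dbp were those of Kif13a (Pearson r = 0.947, Spearman rho = 0.915), Tmtc4 (0.930, 0.758), Btbd9 (0.924, 0.782), Smyd2 (0.920, 0.721) and Coa7 (0.914, 0.818). Those most like Bmal1 were Surf1 (0.925, 0.842), Mme (0.914, 0.770), Slc16a10 (0.914, 0.733), Ranbp10 (0.905, 0.927) and Idh2 (0.903, 0.661). Among clock genes, Per2 ranked 79th of 9185 in likeness to Dbp (r = 0.851) and Cry2 ranked 57th in likeness to Cry1 (r = 0.876). These are descriptions over arrays that share group and slide.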
